A study of Mus musculus with 6 samples.

Results

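Cell-surface peptidases shorten or activate signaling peptides outside the cell, and 7 genes encoding such enzymes, Dpp4, Fap, Enpep, Anpep, Mme, Ace and Ece1, were followed among the 27179 genes counted in cancer-associated fibroblasts (CAFs) of mouse mammary tumors. The genes were selected on a difference already seen for some of them between CD34 negative and CD34 positive CAFs, and were then found by symbol, with 1 entry each. Their differences between the fractions are therefore given as descriptions, with no p-value, and how many of them passed a threshold is given once beside the share of all genes and read as no result.

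The cells came from raGFP-Wnt1 female mice, which carried 1 copy of the Pdgfra H2B-GFP reporter (C57BL/6), a nuclear green fluorescent protein made where the fibroblast receptor gene Pdgfra is active, and the MMTV-Wnt1 transgene (FVB/NJ), in which the mammary tumor virus promoter drives Wnt1 and mammary tumors arise. Both alleles were shared by both groups, and no untreated or normal gland library was part of the comparison. GFP+ cells of 3 tumors were sorted by flow cytometry into a CD34 negative and a CD34 positive fraction, which gave 3 libraries per group (the series' own design text calls the fractions low and high). The age of the tumor-bearing mice, and whether the 3 tumors came from separate mice, were not given in the sources used here.

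Most of these enzymes are anchored in the plasma membrane with the active site facing outward, so that they act on chemokines, hormones and neuropeptides as these reach the cell. DPP4, also known as CD26, removes a dipeptide from the N-terminus of chemokines such as CXCL12, and its close relative FAP, fibroblast activation protein, also cleaves denatured collagen and is a common marker of tumor fibroblasts. ENPEP and ANPEP are aminopeptidases, MME (neprilysin) and ACE (angiotensin-converting enzyme) are zinc metallopeptidases that degrade or convert small peptides, and ECE1 releases mature endothelin.

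Library totals ranged from 16238059 counts (CD34 positive, tumor 1) to 86609267 (CD34 positive, tumor 2), and each member had at least 261 counts in every library (the lowest was Enpep in the CD34 negative library of tumor 3). Levels are counts scaled to 1000000 per library (CPM), after library sizes were adjusted with TMM, a trimmed-mean scaling. Cd34, the gene of the sorted protein, was listed at 79.2, 42.0 and 102 CPM in the CD34 negative libraries of tumors 1, 2 and 3 and at 678, 562.5 and 1605 CPM in the CD34 positive ones, so every library matched its label. The CD34 negative library of tumor 3 stood apart: its log2 CPM correlated at 0.873 and 0.883 with the other CD34 negative libraries, which correlated at 0.961 with each other, and it had counts in 14314 genes against 16253 to 19220 in the other 5. The 6 fibroblast markers (Pdgfra, Pdgfrb, Col1a1, Col1a2, Dcn and Lum) summed to 40208 to 58639 CPM in CD34 negative and 39907 to 42519 CPM in CD34 positive libraries, and the immune, Schwann cell, erythroid and adipocyte markers to at most 14.5, 16.3, 4.26 and 0.882 CPM. In such bulk libraries, fewer cells that express a gene and less RNA of it per cell cannot be told apart.

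Dpp4 and Enpep had the widest gaps between the fractions, both lower in CD34 negative CAFs of all 3 tumors. Fap was lower to a smaller degree in all 3. Mme and Ace were at overlapping levels, and Anpep and Ece1 had nearly equal means in both fractions. Without the CD34 negative library of tumor 3, the log2 fold changes of Dpp4, Enpep and Fap, CD34 negative minus CD34 positive, were -3.17, -2.87 and -0.80.

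Dpp4 (chr2:62330073-62412315, GRCm38.p6) measured 26.3, 37.8 and 34.9 CPM in the CD34 negative libraries of tumors 1, 2 and 3, and 218, 262 and 396 CPM in the CD34 positive libraries of the same tumors. The highest CD34 negative library thus lay far below the lowest CD34 positive one, and the groups did not overlap. The means were 33.0 ± 5.98 (SD, n = 3) and 292 ± 92.6 CPM (SD, n = 3), an 8.86-fold difference. The fitted log2 fold change, CD34 negative minus CD34 positive, was -3.13 ± 0.26 (SE), which placed Dpp4 at rank 227 of 14855 genes by size of change.

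Fap (chr2:62500936-62575509) measured 158, 176 and 147 CPM in CD34 negative and 341, 232 and 291 CPM in CD34 positive libraries. These groups did not overlap either, but tumor 2 brought them close. Its log2 fold change was -0.85 ± 0.19 (SE), with values of -1.11, -0.40 and -0.99 within tumors 1, 2 and 3. Fap and Dpp4 are neighbors in the genome, separated by 88620 bases that hold Gcg, the gene of the glucagon precursor. Gcg had 99 counts in all 6 libraries together, and Ifih1, an RNA sensor gene on the other side of Fap, differed by -0.08 ± 0.42 (SE) on the log2 scale. Slc4a10, a bicarbonate transporter gene next to Dpp4, had 1, 0 and 0 counts in CD34 negative and 30, 59 and 56 counts in CD34 positive libraries. The GENCODE annotation also lists an antisense transcript, Gm13561, across part of Dpp4; the libraries do not mark strand, so its reads and those of Dpp4 cannot be told apart.

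Enpep (chr3:129269177-129332749), which encodes the glutamyl aminopeptidase that converts angiotensin II to angiotensin III, measured 9.42, 13.1 and 7.18 CPM in CD34 negative libraries and 50.7, 74.9 and 129 CPM in CD34 positive libraries. The groups did not overlap, and tumor 3 held both the lowest and the highest library. The means were 9.89 ± 2.97 (SD, n = 3) and 84.9 ± 40.1 CPM (SD, n = 3), an 8.58-fold difference. The log2 fold change was -3.05 ± 0.41 (SE), with -2.43, -2.52 and -4.16 within tumors 1, 2 and 3, against -3.05, -2.79 and -3.50 for Dpp4. ENPEP is known in pericytes as well as in fibroblasts. Of the 6 pericyte markers, Rgs5, Mcam, Cspg4 and Notch3 were higher and Kcnj8 and Abcc9 lower in CD34 negative libraries of 3 of 3 tumors, and their sum was 211 to 236 CPM in CD34 negative against 86.8 to 188 CPM in CD34 positive libraries. Their part in the Enpep difference was not tested.

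Anpep (chr7:79821803-79848210), the gene of aminopeptidase N or CD13, a widely used stromal and myeloid surface marker, measured 226, 151 and 277 CPM in CD34 negative and 261, 153 and 247 CPM in CD34 positive libraries. The groups overlapped fully, and tumor 2 was the lowest of both. The log2 fold change was -0.05 ± 0.28 (SE), and its sign turned with the tumor, from -0.21 in tumor 1 to 0.17 in tumor 3. Mme (chr3:63295211-63383713) measured 59.1, 32.0 and 23.7 CPM in CD34 negative and 46.4, 46.6 and 72.6 CPM in CD34 positive libraries. Its tumors disagreed: the log2 ratio was 0.35 in tumor 1, -0.54 in tumor 2 and -1.62 in tumor 3, and the fitted value was -0.57 ± 0.35 (SE). MME, or CD10, is also known on mammary myoepithelial cells. The 6 epithelial markers summed to 48.3 to 149 CPM in CD34 negative and 12.8 to 130 CPM in CD34 positive libraries, 5 of the 6 higher in CD34 negative libraries of 3 of 3 tumors, and their part in the Mme values was not tested.

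Ace (chr11:105967948-105989964) measured 684, 883 and 730 CPM in CD34 negative and 545, 609 and 742 CPM in CD34 positive libraries. The log2 fold change was 0.29 ± 0.20 (SE), with higher CD34 negative levels in tumors 1 and 2 (0.33 and 0.54) and none in tumor 3 (-0.02). ACE is also well known on endothelium. The 6 endothelial markers summed to 11.4 to 34.2 CPM in CD34 negative and 56.7 to 123 CPM in CD34 positive libraries. Tek had the widest gap, with 13.4, 6.53 and 5.45 CPM in CD34 negative and 65.6, 48.8 and 116 CPM in CD34 positive libraries. Tek and Kdr were lower, and Cdh5 and Vwf higher, in CD34 negative libraries of 3 of 3 tumors. Pecam1 reached 12.9, Kdr 12.6, Vwf 4.29, Cdh5 4.18 and Tie1 1.91 CPM at most, and Cdh5 was at 0 in 1 and Tie1 in 2 libraries. Their part in the Ace values was not tested. Ece1 (chr4:137862237-137965229) measured 117, 141 and 213 CPM in CD34 negative and 129, 154 and 168 CPM in CD34 positive libraries, with a log2 fold change of 0.03 ± 0.24 (SE) and overlapping groups. In the RefSeq annotation Ace overlaps the long noncoding RNA gene Gm11651, and Ece1 overlaps Gm13012 and Gm52683, so that without strand some reads could belong to those genes.

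**Figure D1:**
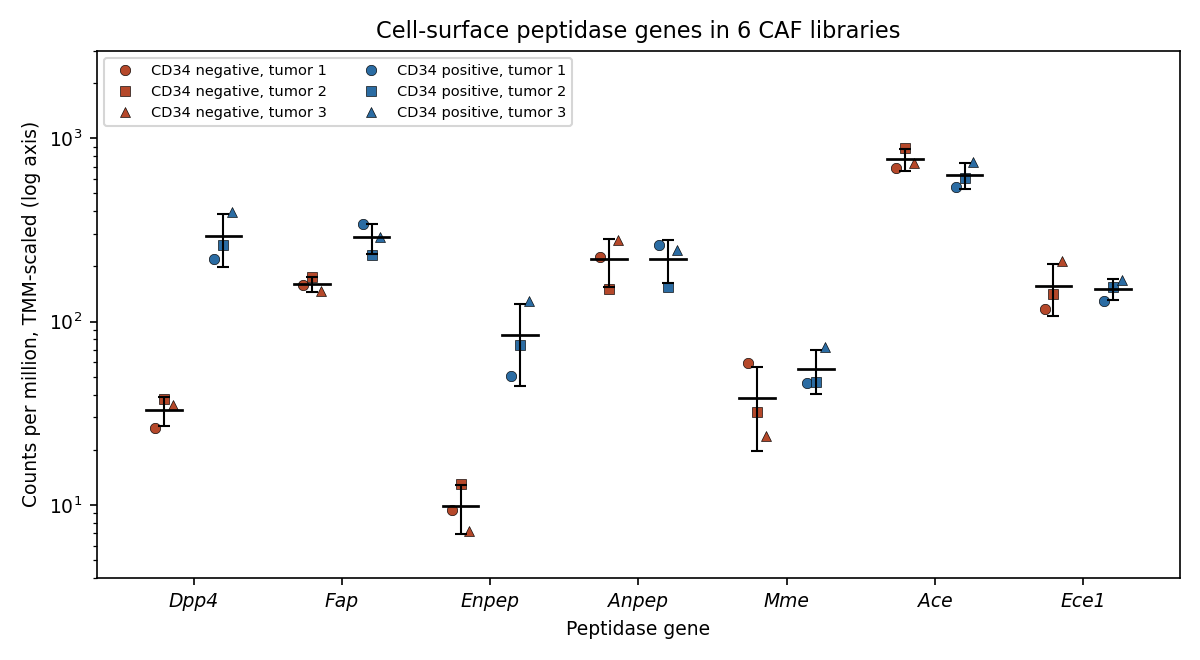
TMM-scaled CPM (log axis) of the 7 peptidase genes in the 3 CD34 negative (red) and 3 CD34 positive (blue) CAF libraries, with marker shapes for the tumors, horizontal lines for the means and bars for the SD. The red and blue points of Dpp4, Enpep and Fap do not overlap, while those of the other 4 genes do.

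All 7 members passed the filter on low counts. By limma-voom with no tumor term, 2 of the 7 (Dpp4 and Enpep) were below the adjusted p threshold of 0.05, both lower in CD34 negative CAFs, against 0.121% of all 14855 genes tested (0.101% lower and 0.0202% higher). With the tumor as a block, since both fractions of a tumor were sorted from the same tissue, Fap joined them, which made 3 of 7, against 8.57% of all genes (4.25% lower and 4.32% higher). For 3 members the groups did not overlap and CD34 negative was lower, against 10.0% of all genes tested, and for none was CD34 negative higher without overlap, against 10.4%. The choice of the genes used this contrast, so nothing is read from these counts.

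**Figure D2:**
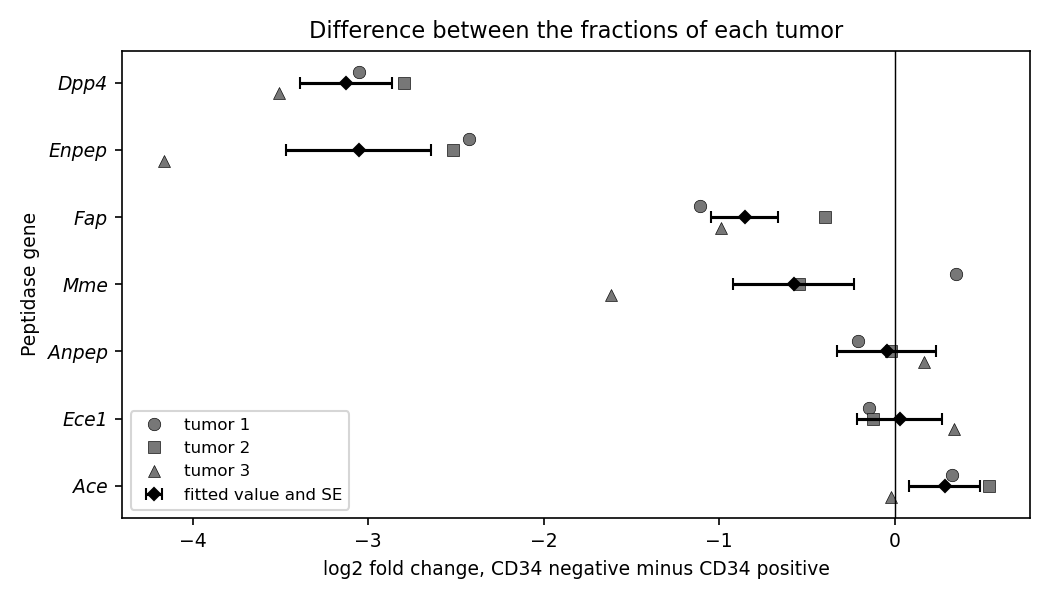
Log2 fold change, CD34 negative minus CD34 positive, of each peptidase gene within tumors 1, 2 and 3 (gray shapes) and as fitted over all 6 libraries (black diamonds, bars for the SE). Dpp4 and Enpep lie at -2.43 or lower in each tumor, Fap lies between -1.11 and -0.40, and the other 4 genes have tumors on both sides of 0.

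Differences between the tumors were no part of the selection and could be tested. The CD34 negative and CD34 positive libraries of a tumor served as its replicates in this test. It therefore did not measure the spread between separate samples of the same tumor. Anpep differed between the tumors by the limma-voom F-test with the fraction in the model (adjusted p = 0.0435 over all genes tested), with tumor 2 lowest in both fractions. It was 1 of 7 members past the threshold, against 4.03% of all genes. The other 6 had adjusted p from 0.141 (Ece1) to 0.727 (Fap) in the same limma-voom test, and Dpp4 stood at 0.161. The Anpep call was lost in limma-voom without the low-count filter (adjusted p = 0.0802), by the edgeR quasi-likelihood test (adjusted p = 0.130) and in limma-voom without the CD34 negative library (adjusted p = 0.201) or the CD34 positive library (adjusted p = 0.311) of tumor 2.

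Levels of different genes were compared per length, as CPM per kilobase of gene (RPKM). In CD34 negative CAFs, Ace led with 150 ± 20.4 RPKM (SD, n = 3), followed by Anpep with 63.7 ± 18.5 and Fap with 59.4 ± 5.44, whose ranges overlapped. Ece1 came next with 32.6 ± 10.4 RPKM. Mme (9.03 ± 4.37) and Dpp4 (5.23 ± 0.95) overlapped in range, although Mme was above Dpp4 in 3 of 3 libraries, and Enpep was last with 2.35 ± 0.71 RPKM.

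The order was different in CD34 positive CAFs, where Dpp4 moved from place 6 to place 4. Ace, with 124 ± 19.6 RPKM (SD, n = 3), and Fap, with 107 ± 20.3, overlapped there, and Fap lay above Anpep (64.4 ± 17.0) in range. From Anpep down through Dpp4 (46.3 ± 14.7), Ece1 (31.2 ± 4.05), Enpep (20.2 ± 9.52) and Mme (13.0 ± 3.55 RPKM), each neighbor's range overlapped with the next, but each was above the next in 3 of 3 libraries.

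As a share of the summed RPKM of the 7 genes, Dpp4 made up 1.62 ± 0.23% (SD, n = 3) in CD34 negative and 11.3 ± 2.32% (SD, n = 3) in CD34 positive CAFs. Enpep took 0.731 ± 0.218% and 4.87 ± 1.73% (SD, n = 3 each). The share of Ace was 46.5 ± 5.40% in CD34 negative against 30.6 ± 3.39% in CD34 positive libraries, without overlap, while its CPM overlapped. Shares of the 7 genes depend on each other, so higher Dpp4, Enpep and Fap in CD34 positive libraries lower the share of Ace there. The summed RPKM itself was 303, 328 and 335 in CD34 negative and 394, 352 and 471 in CD34 positive libraries. The ratio of Fap to its relative Dpp4, per length, was 14.1, 10.9 and 9.84 in CD34 negative and 3.66, 2.07 and 1.72 in CD34 positive libraries of tumors 1, 2 and 3, so Fap exceeded Dpp4 in all 6.

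**Figure D3:**
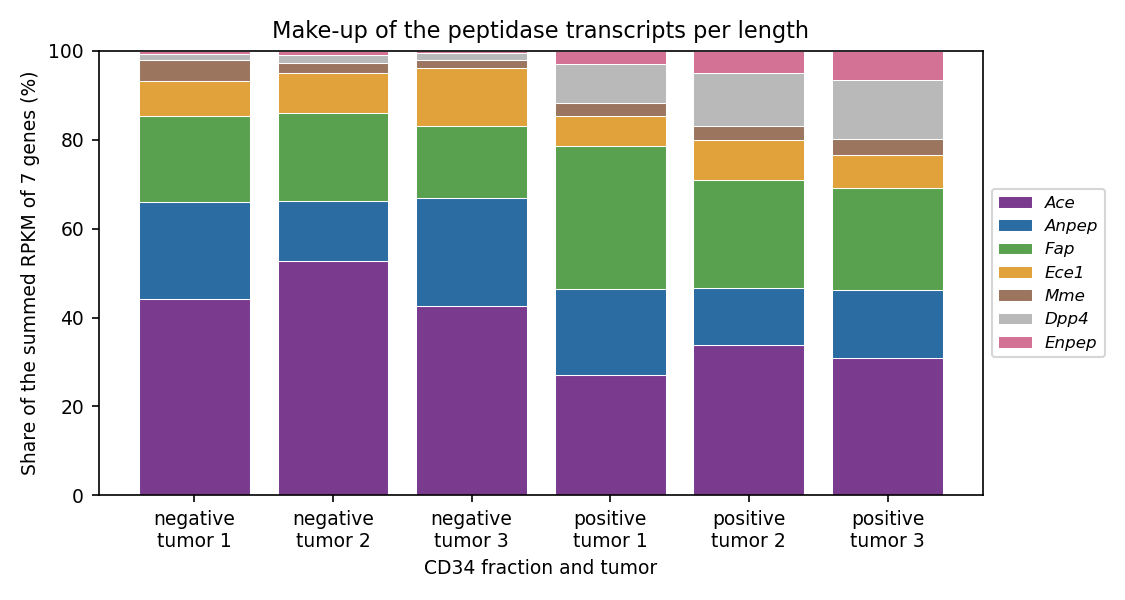
Share of each gene in the summed RPKM of the 7 peptidase genes (stacked to 100%) in the 3 CD34 negative and 3 CD34 positive libraries. The Dpp4 band averages 1.62% in CD34 negative and 11.3% in CD34 positive libraries, and the Ace band 46.5% and 30.6%.

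The profiles of the genes over the libraries were set side by side as a description. For Dpp4, Enpep and the genes nearest to them the fraction difference makes up most of the profile, and Dpp4 and Enpep were chosen with it known, so nothing is read from their likeness. After each gene's log2 CPM was centered on its mean, Dpp4 and Enpep differed by a root mean square of 0.297 over the 6 libraries, the smallest value among pairs of the 7 genes. The same distance between Dpp4 and its genomic neighbor Fap was 1.20. Among 8937 other tested genes (mean log2 CPM 3 or more), those nearest to Dpp4 were Plac9a (0.226), Pcsk6 (0.366) and Vegfd (0.424), against a median distance of 1.61. Plac9a has a near-identical copy, Plac9b, so its counts are uncertain. Pcsk6 encodes a proprotein convertase, and it measured 18.0, 21.7 and 15.9 CPM in CD34 negative and 109, 103 and 124 CPM in CD34 positive libraries. Vegfd, a lymphatic growth factor gene, measured 20.9, 29.5 and 30.8 CPM against 123, 188 and 146 CPM. For Enpep the nearest genes were Ackr3 (0.344), Plac9a (0.400) and Pcsk6 (0.418).

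The other members had different nearest genes. Fap was also chosen with the fraction contrast known and its profile also divides by fraction, so nothing is read from its likeness either. The distances were not scaled to each gene's spread, so members that vary little have small distances. For Fap these were Taf2 (0.0865), a general transcription factor subunit gene, Pparg (0.113), the gene of a nuclear receptor of fat cell differentiation, and Celf2 (0.128), an RNA-binding protein gene. Mme was nearest to Polr3gl, Mex3b and Suv39h1 (0.190 to 0.209), Ace to Irf3, Wbp1l and Coro1b (0.0690 to 0.0972), Anpep to ND6, Usp54 and Spty2d1 (0.0531 to 0.0789) and Ece1 to Eif1ad, Lgals9 and Scd2 (0.0360 to 0.0600). The median distances to all candidates ran from 0.370 for Ace to 0.622 for Mme among these 5 members.

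**Figure D4:**
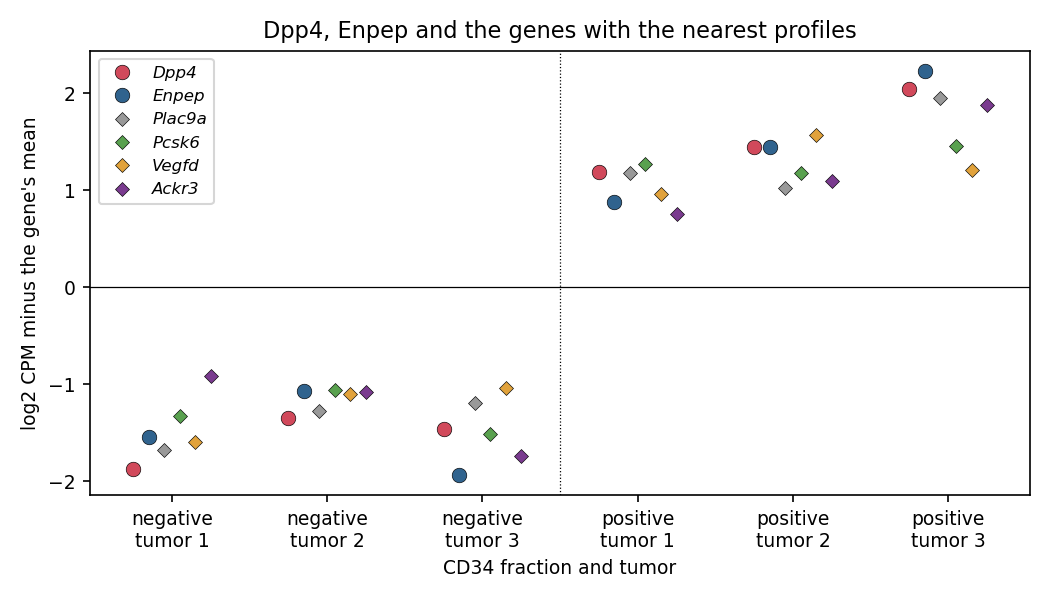
Log2 CPM minus each gene's mean for Dpp4 and Enpep (circles) and the genes nearest to them, Plac9a, Pcsk6, Vegfd and Ackr3 (diamonds), in the 6 libraries. All 6 genes lie below 0 in the 3 CD34 negative and above 0 in the 3 CD34 positive libraries, and Dpp4 and Enpep are a root mean square of 0.297 apart.

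The promoter sequences of 6 of the 7 members were matched in RefSeq (GRCm38.p6); Fap was not matched. Shown are the bases upstream of the outermost listed start of the 2 genes with the widest fraction difference, Dpp4 and Enpep, and of 2 with overlapping groups, Anpep and Ace, so that their base make-up can be compared. Each runs 5′ to 3′ on the gene's strand, with CpG dinucleotides, the sites of DNA methylation, in capitals. For Dpp4, 84 bases next to the listed start lie inside the gene's RefSeq span and are left out. The windows are chr2:62412316-62412481 (minus strand) for Dpp4, chr3:129332750-129332999 (minus) for Enpep, chr7:79848211-79848460 (minus) for Anpep and chr11:105967698-105967947 (plus) for Ace. In the GENCODE annotation, the Anpep window lies in an intron of a longer Anpep transcript.
Dpp4: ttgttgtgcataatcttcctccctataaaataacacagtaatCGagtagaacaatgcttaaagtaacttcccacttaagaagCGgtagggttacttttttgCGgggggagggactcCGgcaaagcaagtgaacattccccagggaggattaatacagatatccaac
Enpep: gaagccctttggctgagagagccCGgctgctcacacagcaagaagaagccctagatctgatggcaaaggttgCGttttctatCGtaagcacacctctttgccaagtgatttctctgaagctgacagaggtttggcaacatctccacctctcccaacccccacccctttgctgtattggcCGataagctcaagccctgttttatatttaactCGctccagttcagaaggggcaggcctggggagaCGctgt
Anpep: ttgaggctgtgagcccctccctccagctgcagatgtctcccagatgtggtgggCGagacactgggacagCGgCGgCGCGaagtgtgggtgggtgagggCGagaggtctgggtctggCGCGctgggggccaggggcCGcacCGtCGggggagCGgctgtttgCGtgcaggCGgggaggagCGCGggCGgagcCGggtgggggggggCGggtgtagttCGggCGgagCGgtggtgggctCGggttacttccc
Ace: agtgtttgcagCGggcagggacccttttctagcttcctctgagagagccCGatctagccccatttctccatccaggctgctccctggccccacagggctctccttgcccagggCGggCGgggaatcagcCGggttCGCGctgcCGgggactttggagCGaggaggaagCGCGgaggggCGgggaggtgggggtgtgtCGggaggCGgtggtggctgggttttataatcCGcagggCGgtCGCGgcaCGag

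Over the full 250 bases upstream, Enpep held 6 CpG at 52.4% GC, close to the medians of 6 CpG and 52.0% over 27018 promoters. Dpp4 was poorer in GC, with 4 CpG at 43.6%, and 21.9% of all promoters had that GC content or less. Anpep (23 CpG, 72.8% GC), Ace (19 CpG, 67.2% GC) and Ece1 (22 CpG, 66.8% GC) were all richer, and Mme held 2 CpG at 45.6% GC. The TATA motif TATAAA, searched on both strands, occurred once each in Dpp4 (227 to 222 bases before the listed start), Enpep (52 to 47) and Ace (31 to 26), and in 13.0% of all promoters. The match was on the gene's strand in Dpp4 and on the opposite strand in Enpep and Ace. The listed start of Dpp4 lies inside the gene's RefSeq span. The GC box motif GGGCGG, which contains a CpG itself, occurred 3 times in Anpep, 4 times in Ace and once in Mme, against 33.0% of all promoters with at least 1 match. CCAAT occurred in Enpep and 2 times in Ece1, and in 34.5% of all promoters. These matches describe the letters of the windows only.

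The peptides, receptors and partners of these enzymes formed a list of 49 genes, of which 30 were tested. By limma-voom with no tumor term, 2 of the 30 fell in CD34 negative CAFs, Cav1 and Ackr3, and none rose, against 0.101% and 0.0202% of all genes tested. With the tumor block, Agtr1a, Npr1, Ccl11, Edn1, Cxcl10, Penk and Cxcl12 fell as well, which made 9, and 2 genes, Ednra and Ednrb, rose, against 4.25% and 4.32% of all genes tested. The log2 fold changes and SEs given for list genes are those of the fit without the block. The median log2 fold change of the 30 was -0.81, against -0.03 over all 14855 genes. Of the 30, 13 were lower and 5 higher in 3 of 3 tumors, against 3478 and 3394 of the 14855. The list was written with earlier results of these data known, so these values are a description only. The edgeR quasi-likelihood test called 0 of the 30 without the block, where 12 had an unadjusted limma-voom p under 0.05 (14.3% of all genes), and 6 with it, against 0.0606% and 3.87% of all genes. DESeq2 called 7 and 15, against 4.70% and 11.7%. Leaving out any 1 library brought the limma-voom count without the block to 0, except that it was 2 without the CD34 positive library of tumor 1; over all genes it was then 0 to 34. With the block, the count was 12, 11 and 15 without tumor 1, 2 or 3, beside 1134, 851 and 2019 of all genes.

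Cav1 encodes caveolin-1, a membrane scaffold protein that is known to bind DPP4. It measured 13.4, 22.9 and 27.0 CPM in CD34 negative and 86.4, 157 and 99.7 CPM in CD34 positive libraries (log2 fold change -2.49 ± 0.32 SE, limma-voom adjusted p = 0.0434 without and 0.000324 with the block). Ackr3, the scavenging receptor of CXCL12, measured 95.5, 85.3 and 53.9 CPM against 302, 384 and 658 CPM (log2 fold change -2.47 ± 0.33 SE, limma-voom adjusted p = 0.0434 and 0.00183). Neither gene's groups overlapped. Cxcl12 itself, a chemokine that DPP4 inactivates, also fell with the block (245, 361 and 379 CPM against 294, 640 and 983 CPM, limma-voom adjusted p = 0.0292), with overlapping groups. Between tumors, the limma-voom F-test called 3 of the 30 tested genes of the list, against 4.03% of all genes. Cxcl12 was among them (adjusted p = 0.0472). Its signaling receptor Cxcr4 was at 9.27 CPM or less in all 6 libraries and was not called. Of the other chemokines that DPP4 trims, Ccl11 (log2 fold change -1.01 ± 0.30 SE, limma-voom adjusted p with the block 0.00570) and Cxcl10 (-1.79 ± 0.47 SE, adjusted p 0.0202) fell with the block in 3 of 3 tumors. Cxcl10 overlaps Art3 in the annotation, so some of its counts could belong to that gene. The chemokine genes Cxcl9 (-0.61 ± 0.71 SE) and Ccl5 (-1.44 ± 1.76 SE), also on the list, were not called. Their limma-voom adjusted p with the block was 0.83 and 0.53. Both were higher in the CD34 negative library of tumor 2 and lower in those of tumors 1 and 3.

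Agtr1a encodes the main receptor of angiotensin II, the peptide that ACE makes and ENPEP trims. It measured 29.0, 28.0 and 14.3 CPM in CD34 negative and 74.5, 68.5 and 47.3 CPM in CD34 positive libraries, and fell with the block (log2 fold change -1.41 ± 0.30 SE, limma-voom adjusted p = 0.00154, 0.100 without). Agt, the precursor gene of angiotensin, was at 2.22 CPM or less in all 6 libraries. Npr1, a receptor gene for the natriuretic peptides that MME degrades, measured 9.45, 6.24 and 2.28 CPM against 54.4, 52.4 and 101 CPM (log2 fold change -3.56 ± 0.52 SE, limma-voom adjusted p = 0.00282 with the block and 0.0571 without). The groups of Agtr1a and Npr1 did not overlap. Of the other natriuretic genes, Npr2, a further receptor gene, measured 89.6, 67.2 and 64.5 CPM against 57.1, 44.9 and 63.1 CPM, higher in 3 of 3 tumors without overlap but not called (0.44 ± 0.21 SE, limma-voom adjusted p = 0.151 with the block). The clearance receptor gene Npr3 (-0.17 ± 0.48 SE) and the peptide gene Nppc (0.60 ± 1.11 SE) were not called either. Penk, the enkephalin precursor gene, fell with the block (log2 fold change -1.04 ± 0.40 SE, limma-voom adjusted p = 0.0275) with overlapping groups.

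In the endothelin system, Edn1, whose product ECE1 processes, measured 2.94, 2.66 and 3.49 CPM in CD34 negative and 8.05, 13.9 and 22.4 CPM in CD34 positive libraries (log2 fold change -2.28 ± 0.45 SE, limma-voom adjusted p = 0.00627 with the block, 0.0858 without). The receptor genes went the other way. Ednrb measured 13.3, 24.5 and 18.4 CPM against 5.69, 5.30 and 0.423 CPM (log2 fold change 2.55 ± 0.73 SE, limma-voom adjusted p = 0.0139 with the block, 0.178 without). Ednra measured 307, 203 and 235 CPM against 250.5, 101 and 79.6 CPM (0.96 ± 0.40 SE, limma-voom adjusted p = 0.0227 with the block, 0.332 without). Both receptor genes overlap long noncoding RNA genes in the annotation. Among the most abundant genes of the list that were not called were Igf2r, a receptor that binds DPP4 (0.02 ± 0.19 SE on the log2 scale), and Atp6ap2, the prorenin receptor gene (0.49 ± 0.18 SE), which was higher in CD34 negative libraries of 3 of 3 tumors.

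**Figure D5:**
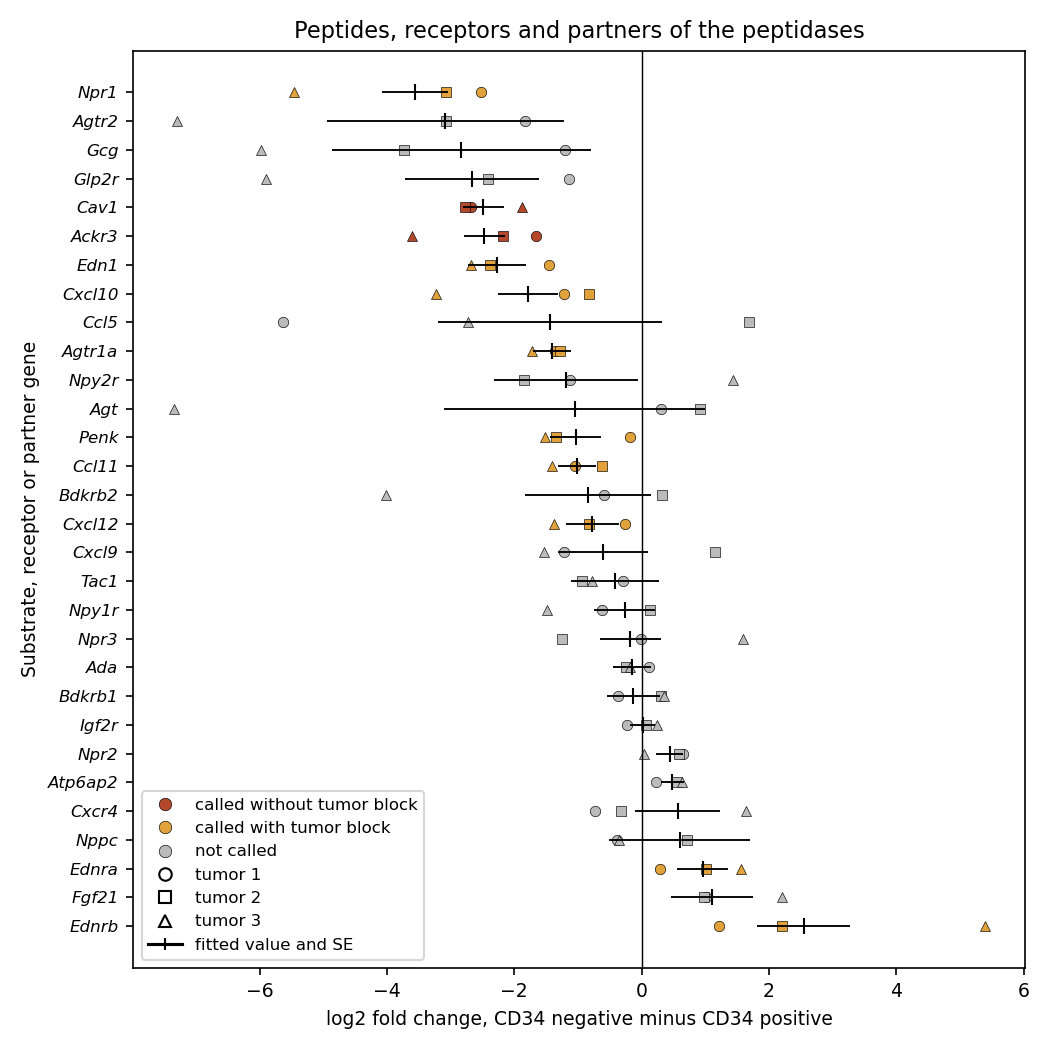
Log2 fold change, CD34 negative minus CD34 positive, of the 30 tested peptide, receptor and partner genes within each tumor (shapes) and as fitted without the tumor block (black ticks, bars for the SE). Red genes (Cav1 and Ackr3) were called without the block, orange ones with it only, and 11 genes are colored in all, 9 of them left of 0.

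Of 26 other surface peptidase genes, 13 were tested, and none was called by limma-voom without the block (2 had an unadjusted p under 0.05, against 14.3% of all genes, and edgeR and DESeq2 called 0, against 0.0606% and 4.70%). With the block, Ggt5, a glutamyltransferase gene that acts on glutathione conjugates, and Xpnpep2, an aminopeptidase P gene, fell and Ece2, a relative of Ece1, rose, against 8.57% of all genes called in either direction. Ggt5 measured 35.9, 13.8 and 12.7 CPM in CD34 negative and 50.9, 36.6 and 66.2 CPM in CD34 positive libraries (log2 fold change -1.33 ± 0.41 SE, limma-voom adjusted p = 0.0243 with the block). Xpnpep2 differed by -0.99 ± 0.42 (SE, limma-voom adjusted p = 0.0364 with the block) and Ece2 by 0.75 ± 0.34 (SE, 0.0259). Ece2 shares sequence with a readthrough gene, Eef1akmt4-ece2, so its counts are uncertain. None of these 3 calls was made by edgeR with the block, which called 0 (3.87% of all genes), while DESeq2 with the block called 4 (11.7% of all genes). The median over the 13 was -0.09. Between tumors, the limma-voom F-test called 2 of the 13, against 4.03% of all genes, Mep1a, a meprin subunit gene (adjusted p = 0.0144), and Dpep1, a dipeptidase gene (adjusted p = 0.0226). Mep1a measured 26.5, 2.75 and 2.15 CPM in CD34 negative and 8.11, 0.831 and 0 CPM in CD34 positive libraries of tumors 1, 2 and 3. It was thus near the floor outside tumor 1.

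All 25 intracellular or secreted relatives were tested, and none was called by limma-voom without the block (8 had an unadjusted p under 0.05, edgeR called 0 and DESeq2 3, against 14.3%, 0.0606% and 4.70% of all genes). The cytosolic relatives of DPP4, Dpp8 and Dpp9, differed by -0.31 ± 0.18 and 0.05 ± 0.27 (SE) on the log2 scale and were not called. With the block, Cpxm2 and Cpz, genes of secreted carboxypeptidase family proteins, rose and the lysosomal Prcp and the secreted Cpq fell, 4 of 25 against 8.57% of all genes. Cpxm2 measured 1691, 1516 and 1574 CPM in CD34 negative and 897, 605 and 131 CPM in CD34 positive libraries (log2 fold change 1.94 ± 0.66 SE, limma-voom adjusted p = 0.0182 with the block). Prcp, whose enzyme also cleaves angiotensins, measured 18.0, 21.9 and 13.7 CPM against 24.9, 39.4 and 50.2 CPM (-1.11 ± 0.29 SE, limma-voom adjusted p = 0.0294). Cpz differed by 0.95 ± 0.24 (SE, limma-voom adjusted p = 0.0240) and Cpq by -0.56 ± 0.19 (SE, 0.0417) on the log2 scale. Prcp and Cpq both overlap long noncoding RNA genes in the annotation. With the block, edgeR called 0 and DESeq2 5, against 3.87% and 11.7% of all genes. The median over the 25 was 0.01.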

How the data were processed

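RNA of GFP+ CAFs, sorted by CD34 from 3 raGFP-Wnt1 tumors, was sequenced as 6 libraries from polyA RNA (TruSeq RNA v2), a kit that does not mark strand. The authors aligned the reads to GRCm38/mm10 and counted them per gene with Rsubread (featureCounts per the labels), and the deposited values are raw counts of each library, with gene lengths in a further deposited column. Strand and multi-mapping settings were not given in the sources used here. Further named list genes, among them Npr2, Igf2r and Ggt5, overlap another annotated gene, so without strand some of their reads could belong to that gene.

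Genes were filtered with filterByExpr (minimum count 10, 14855 kept, 292 of them without a symbol). They were TMM-scaled and fitted with limma-voom (R 4.3.3, limma 3.58.1, edgeR 4.0.16), steps that the study's methods name. Benjamini-Hochberg adjustment, also named there, was over all genes tested, at a two-sided threshold of 0.05. Group was the only term in the main fit, and the study's methods do not say whether its fit held a tumor term. The study reports many more genes higher in CD34 negative CAFs than the 3 that the main fit called. With the block 642 were called higher. The SEs given are those of the main fit, which ignores the pairing. For Dpp4 the SE was 0.26 in the main fit and 0.16 with the block. RPKM is TMM-scaled CPM divided by the deposited gene length in kilobases. Fold changes within a tumor are differences of log2 CPM. The scripts were tested on simulated data. Both fractions of a tumor came from the same animal, so a tumor block pairs them; deviations from the group means correlated at 0.373, 0.350 and 0.219 in tumors 1, 2 and 3. Alternatives were RLE size factors, no filter, the edgeR quasi-likelihood test, DESeq2 1.42.0, the block in each tool, and leaving out libraries or tumors; leaving out tumors with the block was added after seeing the data. Libraries of a group differed by more than counting error (chi-square per gene 133 to 239), so none was counted as a repeat and the spread between libraries sets the precision.

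The members and the lists were chosen with earlier results of these data known. Genes named are the members, Cd34 and list genes called without or with the block. Otherwise up to 6 genes of a list with the highest mean log2 CPM are named. The 3 nearest profiles of each member are named too, as are genes next to a member or overlapping it. Cxcl9, Ccl5, Cxcr4, Agt, Npr3, Nppc, Dpp9 and Mep1a were named after their values were seen.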

Additional observations from a re-analysis of the deposited data

How the results depend on the processing

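Dpp4, Enpep and Fap kept a negative log2 fold change under all 19 alternatives (-3.34 to -2.88, -3.33 to -2.49 and -1.07 to -0.69), and were under the adjusted p threshold in 15, 11 and 6 of them, given as a description since the genes were chosen on this contrast. The sign of Anpep turned in 5 and that of Ece1 in 4 of 19, never under the threshold. Mme was under it once (-1.01, tumor block without tumor 1). The number of members called, 2, was 1 by edgeR, 0 to 2 without single libraries or tumors and 4 with the tumor block without tumor 1. Members differing between tumors, 1, numbered 0 without the low-count filter, 0 by edgeR and 0 to 4 without single libraries. The same tumor tests called 598 of all genes in the main fit, 405 without the filter and 167 by edgeR. Without single libraries they called 686 to 5180 genes. The 4 members came without the CD34 positive library of tumor 3, where 5180 of 15409 genes were called. The replicate block moved the other surface peptidases called from 0 to 3 (limma-voom) and 4 (DESeq2), and to 2, 2 and 6 in limma-voom with the block without tumor 1, 2 or 3. For the intracellular and secreted relatives, 0 became 3 by DESeq2, 4 (limma-voom) and 5 (DESeq2) with the block, and 4, 3 and 5 without tumor 1, 2 or 3. For the substrates, receptors and partners, 2 became 0 by edgeR, 7 by DESeq2, 11 (limma-voom), 6 (edgeR) and 15 (DESeq2) with the block, 12, 11 and 15 with the block without tumor 1, 2 or 3, and 0 to 4 without single libraries or tumors. Over all genes, limma-voom called 18, edgeR 9, DESeq2 698 and limma-voom with the block 1273. With the block, edgeR called 575 and DESeq2 1733 of all genes. Limma-voom with the block called 1134, 851 and 2019 of all genes without tumor 1, 2 or 3. Leaving out single libraries without the block gave 0 to 34, and leaving out tumors without the block gave 0 to 86. The cause of these shifts was not tested.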
